A study of Homo sapiens with 36 samples.

Results

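The miRNAs described here were 7 mature 5p arms from the MIR17HG cluster, which runs from hsa-miR-17 to hsa-miR-92a-1 and is also known as oncomiR-1, and from its paralogous clusters. They were hsa-miR-17-5p, hsa-miR-18a-5p, hsa-miR-20a-5p, hsa-miR-106a-5p, hsa-miR-106b-5p, hsa-miR-93-5p and hsa-miR-25-5p. The rule used names and no measured value, and took in 7 of the 509 mature miRNA names listed over all tables. All 7 were listed in each of the 7 tables, and so were 205 names in all.

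Small RNA was sequenced from 12 groups of cultured human cells with 3 libraries each, 36 in all, with the question of how miRNA levels respond to chromosome gain. HCT116 cells derive from a colorectal carcinoma and are near-diploid, and RPE1 cells derive from retinal pigment epithelium and were immortalised by telomerase. In the line names the number before the slash is a gained chromosome, the number after it is the copy number, c marks a clone and an asterisk marks expression of histone H2B fused to GFP. HCT116 5/4 (4 copies of chromosome 5) was set against HCT116. HCT116 18/3 c2, HCT116* 3/3 c11 and HCT116* 8/3 c7 (3 copies of chromosome 18, 3 and 8) were all set against the same HCT116* libraries, although HCT116 18/3 c2 carries no H2B-GFP by its name. RPE1 5/3 12/3 (3 copies of chromosomes 5 and 12) was set against RPE1. RPE1* 21/3 and RPE1* 7/3 (3 copies of chromosome 21 and 7) were set against separate sets of RPE1* libraries. The added chromosomes were introduced by microcell fusion. Chromosome 12 in RPE1 5/3 12/3 was gained spontaneously, and RPE1* 7/3 had also spontaneously gained chromosomes 9 and 12. Each combination of cell type and gained chromosomes is represented by 1 line, and a difference between lines cannot be told apart from a difference between clones.

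A table held 1 line and its control together, and the value used was the authors' mean normalised count over the 6 libraries. A level given here is that mean as a share of the sum of all means in the same table, in parts per 1000000 (ppm). It therefore describes a line and its control as 1 pool, has no replicate spread, and cannot say whether a miRNA changed with the added chromosome. The tables were normalised separately, and the 3 tables on the HCT116* libraries were not independent of each other. No p-value could be computed, and the depth of single libraries is unknown. The tables listed 273 to 434 miRNAs, and the 10 most abundant took 88.9% to 94.6% of the summed mean. The first of them was hsa-miR-21-5p in 6 tables and hsa-miR-100-5p, with 42.1%, in the RPE1* 7/3 table. Markers of cell type were apart between the cell types. The summed level of 7 colon epithelial miRNAs (5p arms of the miR-200 family, miR-192, miR-194 and miR-215) was 2018 to 3155 ppm in the HCT116 tables and 192 to 251 ppm in the RPE1 tables, where 3 or 4 of them were listed. The summed level of the pigment epithelial miR-204-5p and miR-211-5p was at most 4.50 ppm in the HCT116 tables and 380 to 1452 ppm in the RPE1 tables. In both cell types 1 or 2 of them were listed in a table.

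A miRNA guides the silencing complex to messenger RNAs that pair with its seed, the bases near its 5′ end, and lowers their stability and translation. The MIR17HG cluster is transcribed as 1 primary RNA, is induced by MYC and E2F factors, and is known as an oncogenic cluster that favours proliferation and survival, with CDKN1A and BCL2L11 among its targets. The paralogous clusters arose by duplication. One of them lies within MCM7, which encodes a subunit of the replicative helicase and is itself transcribed as cells enter the cycle.

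The mature sequences are shown first because they set which members can pair with the same targets. They are from RefSeq, and the capitals mark the seed, bases 2 to 8.
hsa-miR-17-5p: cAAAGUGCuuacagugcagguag
hsa-miR-20a-5p: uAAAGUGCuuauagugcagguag
hsa-miR-106a-5p: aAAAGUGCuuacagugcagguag
hsa-miR-106b-5p: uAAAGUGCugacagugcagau
hsa-miR-93-5p: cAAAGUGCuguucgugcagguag
hsa-miR-18a-5p: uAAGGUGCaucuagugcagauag
hsa-miR-25-5p: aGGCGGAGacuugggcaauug
The seed AAAGUGC was shared by 5 members. hsa-miR-18a-5p had the seed AAGGUGC, and hsa-miR-25-5p had the seed GGCGGAG. Counted from 1 at the 5′ end of hsa-miR-17-5p, hsa-miR-106a-5p had 1 substitution, C1A, and hsa-miR-20a-5p had 2, C1U and C12U. hsa-miR-106b-5p had 3 (C1U, U10G and G20A) over its 21 bases, and hsa-miR-93-5p had 4 (U10G, A11U, C12U and A13C). hsa-miR-18a-5p had 6, of which A4G lies in the seed. hsa-miR-25-5p differed from hsa-miR-17-5p at 18 of 21 positions. It is the arm opposite to hsa-miR-25-3p, which is usually the main product of that hairpin, and so it is a member by its cluster and not by its sequence. Reads of miRNAs that differ by 1 base may have been shared between names, and how far this touched hsa-miR-106a-5p was not tested.

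The members came from 3 loci, given here on GRCh37, the build to which the authors mapped. The MIR17HG cluster holds 6 hairpins within 787 bases on the plus strand of chromosome 13. MIR17 lies at chr13:92002859-92002942, MIR18A at chr13:92003005-92003075 and MIR20A at chr13:92003319-92003389, and all 3 overlap an exon of the noncoding host gene MIR17HG. The miR-106a-363 cluster holds 6 hairpins within 901 bases on the minus strand of chromosome X, with MIR106A at chrX:133304228-133304308 in an exon of a noncoding gene. The miR-106b-25 cluster holds 3 hairpins within 515 bases on the minus strand of chromosome 7, inside MCM7. MIR106B (chr7:99691616-99691697) and MIR25 (chr7:99691183-99691266) are intronic, whereas MIR93 (chr7:99691391-99691470) overlaps an exon of at least 1 MCM7 transcript. Of the 7 lines, RPE1* 7/3 alone was named for a gain of a chromosome that carries a member locus.

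hsa-miR-20a-5p, from the chromosome 13 cluster, was the most abundant member in every table. Its level was 3846 ppm in the HCT116 5/4 table, 1915 ppm in HCT116 18/3 c2, 1580 ppm in HCT116* 3/3 c11 and 1768 ppm in HCT116* 8/3 c7. In the RPE1 tables it was 1634 ppm in RPE1 5/3 12/3, 1148 ppm in RPE1* 21/3 and 599 ppm in RPE1* 7/3. HCT116 5/4 stood above all others, RPE1* 7/3 below all others, and the RPE1 5/3 12/3 table fell among the HCT116 tables. The highest level was 6.42 times the lowest, and its rank by level within a table was between 18 and 32.

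hsa-miR-17-5p, encoded at the 5′ end of the same primary transcript, was at 1092 ppm in HCT116 5/4 and at 360, 336 and 355 ppm in HCT116 18/3 c2, HCT116* 3/3 c11 and HCT116* 8/3 c7. It was at 445 ppm in RPE1 5/3 12/3, 299.8 ppm in RPE1* 21/3 and 109.7 ppm in RPE1* 7/3. The order of the extremes was that of hsa-miR-20a-5p, and RPE1 5/3 12/3 was above 3 of the 4 HCT116 tables. The range was 9.95-fold.

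hsa-miR-18a-5p, from the hairpin between these, was less abundant. It was at 146 ppm in HCT116 5/4, and at 74.5, 78.8 and 86.0 ppm in HCT116 18/3 c2, HCT116* 3/3 c11 and HCT116* 8/3 c7. The RPE1 tables held 39.5 ppm (RPE1 5/3 12/3), 24.8 ppm (RPE1* 21/3) and 13.9 ppm (RPE1* 7/3). Every HCT116 table was above every RPE1 table, and the range was 10.5-fold.

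Of the chromosome 7 members, hsa-miR-93-5p was the most abundant. It was at 1540 ppm in HCT116 5/4, 849 ppm in HCT116 18/3 c2, 796 ppm in HCT116* 3/3 c11 and 757 ppm in HCT116* 8/3 c7, and at 605 ppm in RPE1 5/3 12/3, 410.1 ppm in RPE1* 21/3 and 243 ppm in RPE1* 7/3. hsa-miR-106b-5p was at 774 ppm in HCT116 5/4, 291 ppm in HCT116 18/3 c2, 265 ppm in HCT116* 3/3 c11 and 264 ppm in HCT116* 8/3 c7, and at 194, 144 and 72.2 ppm in the RPE1 tables in the same order. For both, the HCT116 and RPE1 tables did not overlap, and the RPE1* 7/3 table, in which 3 of 6 libraries came from a line with 3 copies of chromosome 7, was the lowest of all. The range was 6.34-fold for hsa-miR-93-5p and 10.7-fold for hsa-miR-106b-5p.

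hsa-miR-25-5p, from the last hairpin of that cluster, did not follow this order. It was at 14.4 ppm in HCT116 5/4, 20.6 ppm in HCT116 18/3 c2, 27.5 ppm in HCT116* 3/3 c11 and 24.4 ppm in HCT116* 8/3 c7. It was at 7.03 ppm in RPE1 5/3 12/3, 4.77 ppm in RPE1* 21/3 and 17.3 ppm in RPE1* 7/3. In ppm, HCT116 5/4 was the highest table for the other 6 members but the lowest HCT116 table here. RPE1* 7/3 was in ppm the lowest for the other 6 but the highest RPE1 table here.

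hsa-miR-106a-5p, from the X chromosome, was the least abundant member in 4 of the 7 tables, and hsa-miR-25-5p was in the other 3. It was at 18.1 ppm in HCT116 5/4, between 6.16 and 6.45 ppm in the other 3 HCT116 tables, and at 9.84 ppm in RPE1 5/3 12/3, 6.47 ppm in RPE1* 21/3 and 3.47 ppm in RPE1* 7/3. The cell types overlapped, and the range was 5.21-fold. For comparison, the median log2 range of the 173 miRNAs with a mean of at least 10 in all 7 tables was 2.40. Those of the members were 2.38 for hsa-miR-106a-5p, 2.53 for hsa-miR-25-5p, 2.66 for hsa-miR-93-5p, 2.68 for hsa-miR-20a-5p, 3.32 for hsa-miR-17-5p, 3.39 for hsa-miR-18a-5p and 3.42 for hsa-miR-106b-5p, and 48.6% to 74.0% of the 173 had ranges at or below them.

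**Figure D1:**
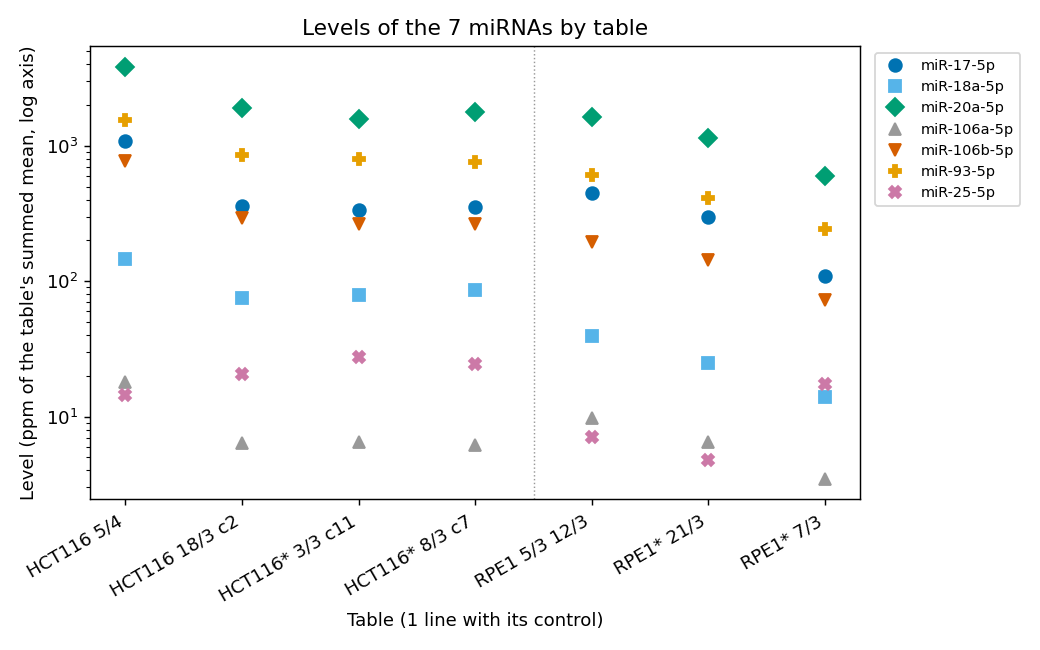
Level of each of the 7 miRNAs (ppm of the table's summed mean, log axis) in each of the 7 tables, HCT116 left and RPE1 right of the dotted line. Each point is 1 pooled value of 6 libraries, without a spread. In ppm, 6 miRNAs are highest in HCT116 5/4 and lowest in RPE1* 7/3, while miR-25-5p is not. With a median-of-ratios factor miR-106a-5p has other extremes.

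The 5 members with the seed AAAGUGC together took 0.727% of the summed mean in HCT116 5/4 and 0.103% in RPE1* 7/3. Their shares among themselves moved far less. hsa-miR-20a-5p made up 52.9% to 58.3% of their sum, hsa-miR-93-5p 20.4% to 26.7%, hsa-miR-17-5p 10.5% to 15.4%, hsa-miR-106b-5p 6.70% to 10.6% and hsa-miR-106a-5p 0.186% to 0.341%. A read spans a whole mature miRNA, so these levels need no correction for length. Unequal capture of sequences in library preparation was not tested. Over all 7 members, the chromosome 13 cluster gave 64.6% to 72.3%, the chromosome 7 cluster 27.4% to 35.2% and the X chromosome 0.181% to 0.335%.

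**Figure D2:**
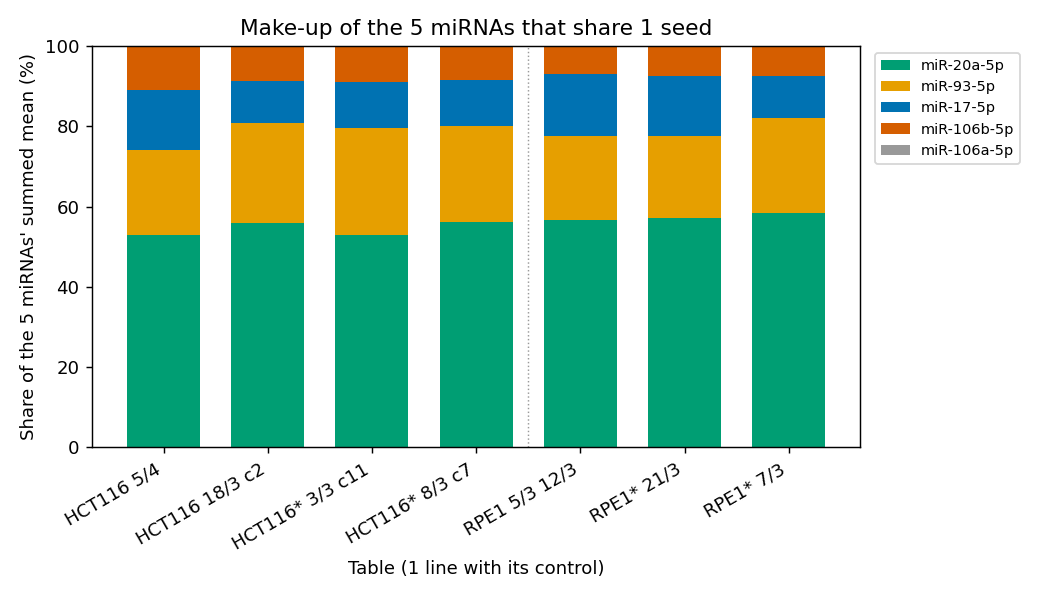
Share of each of the 5 miRNAs with the seed AAAGUGC in their summed mean (%, stacked bars from 0 to 100) in each of the 7 tables. miR-20a-5p holds 52.9% to 58.3% in every table, and miR-106a-5p takes at most 0.341%, too little to be seen at this scale.

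Cell types were compared by asking whether the 4 HCT116 tables and the 3 RPE1 tables overlapped. Every HCT116 table was above every RPE1 table for 3 of the 7 members, hsa-miR-18a-5p, hsa-miR-106b-5p and hsa-miR-93-5p. The same was true of 46.8% of the 173 miRNAs, so this count was near that of all miRNAs. No member was higher in every RPE1 table, which was the case for 11% of the 173. On the log2 scale the HCT116 mean was above the RPE1 mean by 1.96 for hsa-miR-18a-5p, 1.49 for hsa-miR-106b-5p, 1.34 for hsa-miR-25-5p and 1.27 for hsa-miR-93-5p. It was above by 1.03 for hsa-miR-20a-5p, 0.93 for hsa-miR-17-5p and 0.44 for hsa-miR-106a-5p, beside a median of 0.89 over the 173. These differences were relative to the scaling. With a median-of-ratios factor the median over all miRNAs was -0.10. The direction turned for hsa-miR-17-5p, at -0.064, and hsa-miR-106a-5p, at -0.55, and hsa-miR-20a-5p was at 0.042. hsa-miR-18a-5p alone kept the HCT116 and RPE1 tables apart, at 0.96, beside 25.4% of the 173. Leaving out 1 table gave 0.35 to 1.36 for hsa-miR-17-5p and 0.044 to 0.80 for hsa-miR-106a-5p, with the lowest values without RPE1* 7/3 and the highest without RPE1 5/3 12/3. Without HCT116 5/4 they were 0.52 and 0.066. Without the table of RPE1 5/3 12/3 the count was 5 of 7, beside 49.7% of the 173.

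For the tables of RPE1* 21/3 and HCT116 5/4, and for that of RPE1 5/3 12/3, replicates were entered as pairs in the authors' model because of sequencing batches. These are called the 3 tables with a batch term. Of the HCT116 tables, that of HCT116 5/4 alone had the term, and it alone held the HCT116 control libraries. For its levels, the gain of chromosome 5, the batches and the control libraries cannot be told apart. The cell types were therefore also compared within the 3 tables with and the 4 tables without that term. With it, HCT116 5/4 was above both RPE1 tables for all 7 members, as for 72.3% of the 173 miRNAs, by 1.58 for hsa-miR-17-5p, 2.22 for hsa-miR-18a-5p and 1.18 for hsa-miR-106a-5p on the log2 scale. Without it, the 3 HCT116 tables, which share a control, were above RPE1* 7/3 for all 7, as for 75.1% of the 173. The differences were 1.68 for hsa-miR-17-5p, 2.52 for hsa-miR-18a-5p, 0.87 for hsa-miR-106a-5p and 0.47 for hsa-miR-25-5p, the smallest. The median over the 173 miRNAs was 0.98 with and 1.08 without the term. Each of these comparisons rested on 1 table on one side, and both counts are for levels in ppm. With the median-of-ratios factor, hsa-miR-106a-5p and hsa-miR-25-5p were higher in RPE1* 7/3 than in those 3 HCT116 tables. By that factor hsa-miR-106a-5p was also higher in RPE1 5/3 12/3 than in HCT116 5/4.

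Ratios between members of 1 table do not depend on how tables are scaled to each other. Of 7 ratios computed, 3 did not overlap between the cell types. The share of ratios of other miRNA pairs that did so was not computed, so this count has no background. hsa-miR-18a-5p was at 13.4% to 24.2% of hsa-miR-17-5p in the HCT116 tables and at 8.26% to 12.7% in the RPE1 tables. hsa-miR-106a-5p was at 1.66% to 1.92% of hsa-miR-17-5p in HCT116 and at 2.16% to 3.16% in RPE1. hsa-miR-17-5p was 1.24 to 1.41 times hsa-miR-106b-5p in HCT116 and 1.52 to 2.30 times in RPE1. The gap between the cell types was narrow for the first and the last of these. Within either cell type, tables with and without the batch term also did not overlap for any of these 3 ratios. The first ratio was 13.4% with and 20.7% to 24.2% without the term in HCT116. In RPE1 it was 8.26% to 8.86% with and 12.7% without. Each such comparison had 1 table on one side.

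Another 3 of the 7 ratios split all the tables by the batch term, while the cell types overlapped over all 7 tables. The share of ratios of other miRNA pairs that did so was not computed. hsa-miR-20a-5p was 3.52 to 3.83 times hsa-miR-17-5p in the 3 tables with the term and 4.70 to 5.46 times in the other 4, although both come from 1 primary transcript. hsa-miR-20a-5p was 2.50 to 2.80 times hsa-miR-93-5p with the term and 1.98 to 2.47 times without it. hsa-miR-25-5p was at 1.86% to 3.63% of hsa-miR-106b-5p with the term and at 7.06% to 24.0% without it. Within each set of tables, however, every HCT116 table was below every RPE1 table for all 3 ratios. The first ratio was 3.52 in HCT116 and 3.67 to 3.83 in RPE1 with the term. Without the term it was 4.70 to 5.31 in HCT116 and 5.46 in RPE1. Each of these comparisons within a set had 1 table on one side. The grouping by batch term was made after the values were seen, and the part of sequencing batches in it was not tested. The remaining ratio, hsa-miR-93-5p over hsa-miR-106b-5p, was 1.99 in HCT116 5/4 and 2.85 to 3.36 in the other 6 tables.

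**Figure D3:**
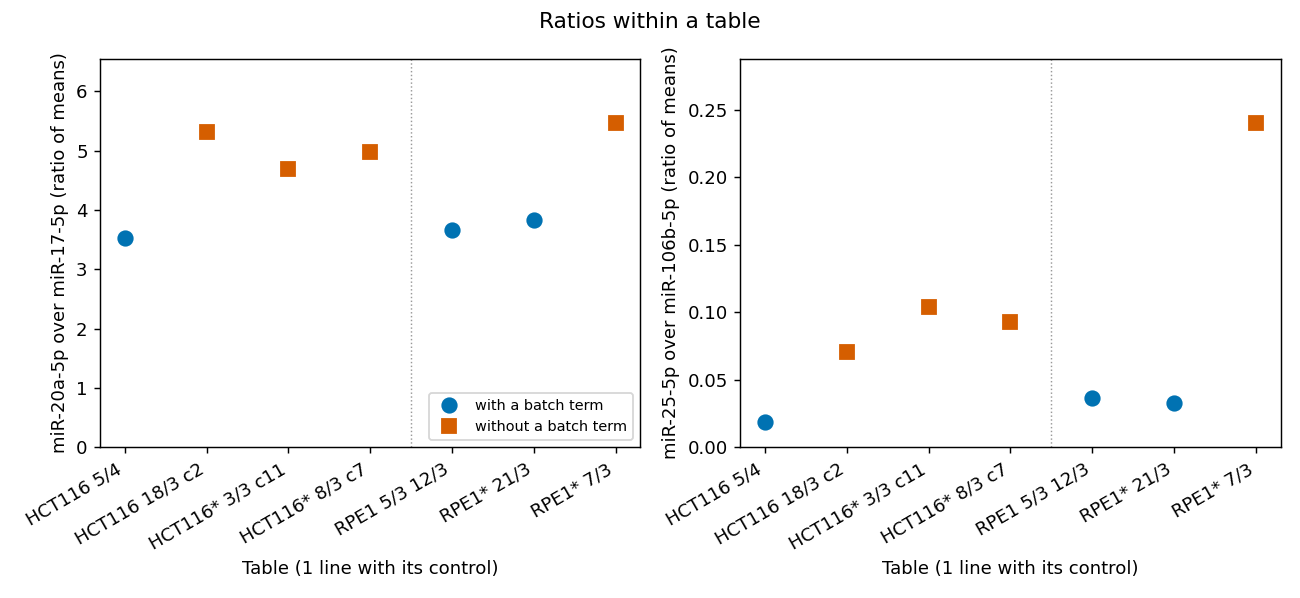
Ratio of miR-20a-5p to miR-17-5p (left) and of miR-25-5p to miR-106b-5p (right) in each of the 7 tables, both axes from 0. Circles are the 3 tables with a batch term and squares the 4 without, and in both panels every circle is below every square, at 3.52 to 3.83 against 4.70 to 5.46 on the left.

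By level, too, hsa-miR-25-5p was lower in every table with a batch term (4.77 to 14.4 ppm) than in every table without one (17.3 to 27.5 ppm). Of the 173 miRNAs, 11.6% had this pattern. hsa-miR-106a-5p had the opposite one, at 6.47 to 18.1 ppm with and 3.47 to 6.45 ppm without the term, as did 12.1% of the 173, and there the nearest tables were RPE1* 21/3 at 6.47 ppm and HCT116* 3/3 c11 at 6.45 ppm. In ppm the other 5 members overlapped between these sets. With the median-of-ratios factor hsa-miR-17-5p and hsa-miR-20a-5p did not overlap either, and were higher in every table with the term. The share of the 173 with that pattern by this factor was not computed.

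The chromosome 7 cluster was examined in the RPE1* 7/3 table against the other RPE1 tables. That table was the lowest of the 3 RPE1 tables for 6 of the 7 members, 2 of them from chromosome 7, beside 48.8% of the 211 miRNAs with a mean of at least 10 in all 3. It was the highest for 1 member, hsa-miR-25-5p, beside 37.4% of the 211. On the log2 scale the difference was -1.21 for hsa-miR-106b-5p and -1.04 for hsa-miR-93-5p. For the members on other chromosomes it was -1.74 (hsa-miR-17-5p), -1.17 (hsa-miR-18a-5p), -1.19 (hsa-miR-20a-5p) and -1.20 (hsa-miR-106a-5p), and the median over the 211 was -0.20. For hsa-miR-25-5p it was 1.58, which is 2.99-fold, and 95.3% of the 211 miRNAs were at or below it. Of the 3 RPE1 tables this was also the only one without a batch term, and each of the 3 had its own control libraries. The gain of chromosome 7, the batches and the control libraries cannot be told apart here, and since line and control were pooled, these values are no measure of a dosage effect.

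The 3 tables on the HCT116* libraries show how close tables with a common control were. The highest of the 3 was 1.07 times the lowest for hsa-miR-17-5p, 1.05 times for hsa-miR-106a-5p, 1.11 times for hsa-miR-106b-5p and 1.12 times for hsa-miR-93-5p. It was 1.15 times for hsa-miR-18a-5p, 1.21 times for hsa-miR-20a-5p and 1.34 times for hsa-miR-25-5p, beside a median of 1.25 over 266 miRNAs. The same 3 control libraries were in each of these pools.

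The 3 clusters encode other arms, of which a list of 21 was drawn up, and 4 were listed in at least 1 table. The 13 3p arms among them, which include hsa-miR-92a-3p, hsa-miR-19b-3p and hsa-miR-25-3p, were not analysed here and are part of no level or summed mean given above. hsa-miR-92a-1-5p, the arm opposite to hsa-miR-92a-3p in the chromosome 13 cluster, was listed in all 7 tables. It was at 6.01 ppm in HCT116 5/4, 7.27 ppm in HCT116 18/3 c2, 9.62 ppm in HCT116* 3/3 c11 and 9.09 ppm in HCT116* 8/3 c7, and at 3.56 ppm in RPE1 5/3 12/3, 2.70 ppm in RPE1* 21/3 and 9.42 ppm in RPE1* 7/3. In ppm it was highest in HCT116* 3/3 c11, lowest in RPE1* 21/3 and lower in every table with a batch term. hsa-miR-25-5p shared this, unlike the members encoded beside hsa-miR-92a-1-5p. With the median-of-ratios factor both miRNAs were highest in RPE1* 7/3. In RPE1* 7/3 hsa-miR-92a-1-5p was 3.04 times the other RPE1 tables, and the reason was not tested. RPE1* 7/3 was the highest RPE1 table for 37.4% of the 211 miRNAs.

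**Figure D4:**
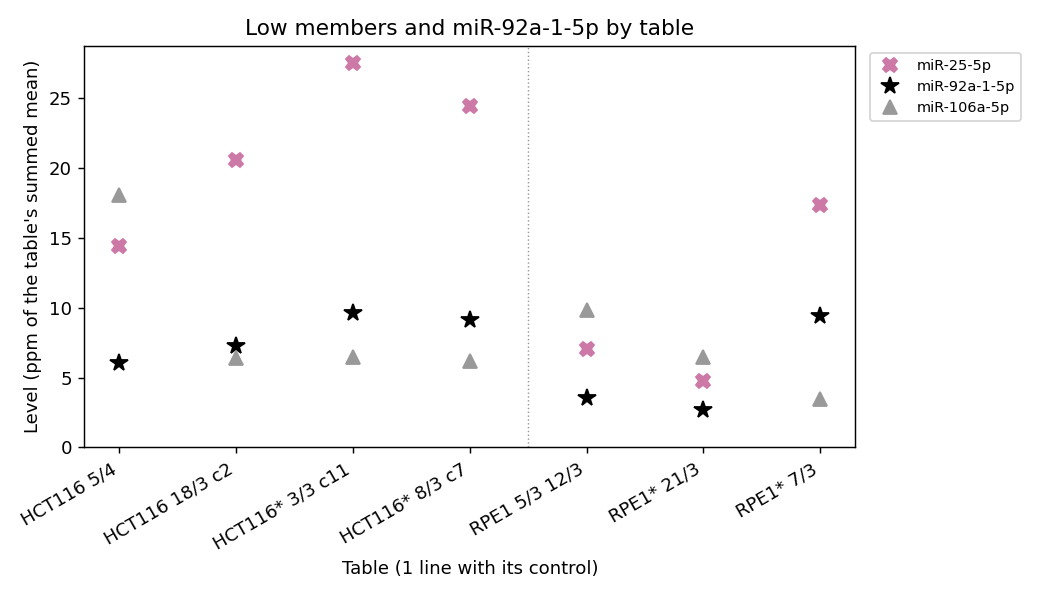
Level (ppm of the table's summed mean, axis from 0) of miR-25-5p, miR-92a-1-5p and miR-106a-5p in each of the 7 tables, 1 pooled value each. In ppm, miR-25-5p and miR-92a-1-5p are both lowest in RPE1* 21/3 and highest in HCT116* 3/3 c11, and miR-106a-5p is highest in HCT116 5/4. The highest tables are others with a median-of-ratios factor.

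hsa-miR-20b-5p, which has the seed AAAGUGC and comes from the same cluster as hsa-miR-106a-5p, is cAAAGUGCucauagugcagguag and has the substitutions U10C and C12U against hsa-miR-17-5p. It was at 12.9 ppm in HCT116 5/4, 6.07 to 7.11 ppm in the other HCT116 tables, 4.85 ppm in RPE1 5/3 12/3, 3.64 ppm in RPE1* 21/3 and 2.05 ppm in RPE1* 7/3. It thus had the extremes of the 6 members. hsa-miR-18b-5p, from the same cluster, was listed in 3 tables, all of HCT116, at 1.08 to 3.28 ppm, and hsa-miR-19b-1-5p was listed in 5 tables at 0.101 to 1.33 ppm. Of 5 other miRNAs in the RefSeq table that share a seed with a member, these 2, hsa-miR-18b-5p and hsa-miR-20b-5p, were listed in any table.

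Patterns over the 7 tables were compared with that of hsa-miR-17-5p by the root mean square difference of centred log2 levels, as a description over 7 tables that share libraries. The difference was 0.25 for hsa-miR-20a-5p, 0.30 for hsa-miR-106a-5p, 0.33 for hsa-miR-106b-5p, 0.36 for hsa-miR-93-5p, 0.60 for hsa-miR-18a-5p and 1.31 for hsa-miR-25-5p. Of 95 miRNAs outside the clusters with a mean of at least 100 in every table, 1 was closer than the first 4 of these members, 13 were closer than hsa-miR-18a-5p and 72 closer than hsa-miR-25-5p. The 5 nearest were hsa-miR-30b-5p (0.19), hsa-miR-30e-5p (0.39), hsa-miR-5701 (0.43), hsa-miR-1287 (0.46) and hsa-miR-151a-5p (0.47). hsa-miR-30b-5p was at 605 ppm in HCT116 5/4, 189 to 210 ppm in the other HCT116 tables, 209 ppm in RPE1 5/3 12/3, 216 ppm in RPE1* 21/3 and 69.5 ppm in RPE1* 7/3.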

How the data were processed

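Small RNA libraries of 12 groups of HCT116 and RPE1 cells, 3 each, were prepared and sequenced as single reads by the authors. They trimmed adapters with cutadapt, mapped reads to hg19, counted mature miRNAs with mirdeep2 and normalised with DESeq2 (version not given in the sources used here). The 3 libraries of a group are biological replicates according to the study.

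The deposited tables, 1 per line, hold the mean normalised count of each miRNA, a signal averaged by the authors over the 6 libraries of a line and its control. They also hold the authors' own comparison of line with control (log2 fold change, standard error, statistic, p-value and adjusted p-value), which was not used here. Hence no value of a single library, test or interval could be given, and depth is unknown.

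Means were divided by the table's sum and given as ppm. Tables were compared by overlap, over miRNAs with a mean of at least 10 in every table compared. Alternatives were a median-of-ratios factor, a sum without the 15 miRNAs that were among the 10 most abundant of any table, and leaving out tables. The scripts were tested on simulated data. Groups followed the labels. The comparison by batch term and the count of lowest tables were added after the data were seen. The members and lists were chosen with earlier results of these data known. Named miRNAs were the 7 members, a list of 21 other arms of the clusters, miRNAs that share a seed with a member, and the 5 most like hsa-miR-17-5p among those with a mean of at least 100. Sequences are from RefSeq (GRCh38.p14), and positions are exact matches of its hairpins in GRCh37, except MIR93 and MIR20B, taken from GENCODE 44 on GRCh37. Python 3.11.15, numpy 2.4.6, pandas 2.3.3 and matplotlib 3.10.9 were used.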

Additional observations from a re-analysis of the deposited data

How the results depend on the processing

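The 7 tables hold pooled means, so the limits are those of scaling and of which tables enter. Of the alternative log2 values, 88 moved by less than the spread between tables and 22 moved further. Of the alternative counts and shares, 12 stayed within 1.5 times and 5 did not. With the median-of-ratios factor the log2 of the highest over the lowest level was 1.99 for hsa-miR-17-5p, 2.07 for hsa-miR-18a-5p, 1.36 for hsa-miR-20a-5p, 1.56 for hsa-miR-106a-5p, 2.10 for hsa-miR-106b-5p and 1.34 for hsa-miR-93-5p. With the sum without the most abundant miRNAs it was 2.18 for hsa-miR-17-5p, 1.55 for hsa-miR-20a-5p, 1.42 for hsa-miR-106a-5p, 2.29 for hsa-miR-106b-5p and 1.53 for hsa-miR-93-5p. The number of members higher in every HCT116 table was 3, and 1 with either of these scalings. It was 3 to 5 when 1 table was left out, with 5 without RPE1 5/3 12/3. In ppm it was 7 within the tables with or within those without a batch term. The extremes also depended on the scaling. With the median-of-ratios factor hsa-miR-106a-5p was highest in RPE1 5/3 12/3 and lowest in HCT116* 8/3 c7. By that factor hsa-miR-25-5p was highest in RPE1* 7/3. The log2 difference of HCT116 over RPE1 with the median-of-ratios factor was -0.064 for hsa-miR-17-5p, 0.96 for hsa-miR-18a-5p, 0.042 for hsa-miR-20a-5p, -0.55 for hsa-miR-106a-5p, 0.49 for hsa-miR-106b-5p, 0.27 for hsa-miR-93-5p and 0.35 for hsa-miR-25-5p. With the sum without the most abundant miRNAs it was 0.15 for hsa-miR-17-5p, 1.18 for hsa-miR-18a-5p, 0.25 for hsa-miR-20a-5p, -0.34 for hsa-miR-106a-5p, 0.71 for hsa-miR-106b-5p and 0.48 for hsa-miR-93-5p. The scalings change only the divisor of a table, and the median over all 173 miRNAs moved with them, from 0.89 to -0.10 and 0.11. No paired analysis was possible because the values used are means over libraries and come from no test.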
